A study of Rattus norvegicus with 6 samples.

Results

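Kinesins are motors that step along microtubules, and tubulins are the subunits from which microtubules are built. The genes described here are the 56 of 40456 rows of the deposited count table whose symbol is a numbered kinesin (39 genes) or a numbered alpha, beta or gamma tubulin (17 genes). The rule reads the symbol and no measured value. Of the 56, 40 passed the filter on low counts and were tested, 29 kinesins and 11 tubulins. Kif14 passed through all 3 knockdown libraries and 2 control libraries, so its control libraries alone would not have sufficed. Kif5a passed through the knockdown libraries alone, so it could enter the test only by being high after knockdown.

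RNA was sequenced after poly-A selection from H9c2 (2-1) cells, a rat cardiomyoblast line, labelled genotype WT and cell type cardiomyocyte. All 6 libraries came from cells kept for 5 days in medium with 1% serum and 1 µM retinoic acid and given 25 nM of a locked nucleic acid gapmer, an antisense oligonucleotide, by lipid transfection for 24 h. The control group (3 libraries) received a negative control LNA and the knockdown group (3 libraries) a Tug1 knockdown LNA, and 1 sequence was used per group. H9c2 is a single cell line, and the labels do not say whether the 3 libraries of a group were separate cultures, so p-values measure the spread between these libraries, which may be technical.

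Microtubules grow and shrink by gain and loss of alpha and beta tubulin dimers, and gamma tubulin seeds them at centrosomes. Several genes encode each tubulin type, and their products, called isotypes, differ mainly in the acidic tail that motors and modifying enzymes contact. Mitotic kinesins build the spindle, move chromosomes and complete cytokinesis, and their genes are mostly expressed in dividing cells. Transport kinesins carry vesicles, mitochondria and other cargo, and in muscle cells the microtubule lattice also positions nuclei and organelles.

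Library totals ran from 12978548 to 13544337 counts. Levels are CPM, counts scaled to a common library size with edgeR's TMM method, on which 1 CPM was 12.9 to 13.8 counts. Levels were not divided by transcript length, so single genes are compared with themselves between groups and not with other genes. Sums, ratios and shares over several genes are of counts and not of transcript numbers, and are also compared between groups. The targeted RNA Tug1 had 672 to 718 counts in control and 152 to 165 in knockdown libraries. Of 13 cardiomyocyte markers, 5 (Myh6, Myh7, Nppb, Ryr2 and Nkx2-5) had at most 3 counts in every library, and Nppb had none. Tnni3, Myl7 and Nppa had at most 4 counts. Of the 5 tested cardiomyocyte markers, Tnnt2 rose, with 335 to 369 CPM in control and 391 to 439 CPM in knockdown libraries. Pln, at 21.8 to 25.0 CPM in control and 12.6 to 16.4 CPM in knockdown libraries, fell. Myl2, with 8, 8 and 5 counts in control and 25, 14 and 13 counts in knockdown libraries, also rose. It passed the filter through the knockdown libraries alone, so it could enter the test only by being high after knockdown. Gata4 (10.1 to 13.8 CPM over all libraries) and Actn2 (11 to 24 counts) were not called. The 13 markers summed to 374 to 404 CPM in control and 416 to 469 CPM in knockdown libraries. All 10 skeletal muscle markers were tested, 9 of them higher and 1 lower after knockdown, beside 30.8% of all tested genes higher and 30.9% lower. They summed to 1003 to 1012 CPM in control and 1485 to 1574 CPM in knockdown libraries. Of 5 smooth muscle markers, 3 were higher and 0 lower. Their sums were 907 to 1008 CPM in control and 1049 to 1209 CPM in knockdown libraries. Of 8 tested fibroblast markers, 2 (Col3a1 and Dcn) were higher and 4 (Col1a1, Pdgfrb, Thy1 and Postn) lower. Fibroblast markers summed to 44294 to 45652 CPM in control and 41601 to 44444 CPM in knockdown libraries. The part of these markers in the kinesin and tubulin results was not tested.

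The comparison asked how kinesin and tubulin transcripts differed between Tug1 gapmer and control gapmer cells. Kinesins mostly rose and tubulins mostly fell. Of 29 tested kinesins, 18 rose and 3 fell, with Kif5a, which passed the filter through the knockdown libraries alone, among those that rose. Of 11 tested tubulins, 7 fell and 0 rose. These verbs are used for genes with an adjusted p under 0.05 in edgeR's quasi-likelihood test, referred to as called. Of all 14216 tested genes, 61.7% were called, 30.8% higher and 30.9% lower, so the share called among kinesins (72.4%) and tubulins (63.6%) was near that of all genes, while the split by direction was not even. The median log2 fold change (knockdown over control) was 0.42 for kinesins and -0.60 for tubulins, beside 0.00 for all tested genes. With an offset for gene length, described with the length results, the medians were 0.20 for kinesins and -0.46 for tubulins.

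**Figure D1:**
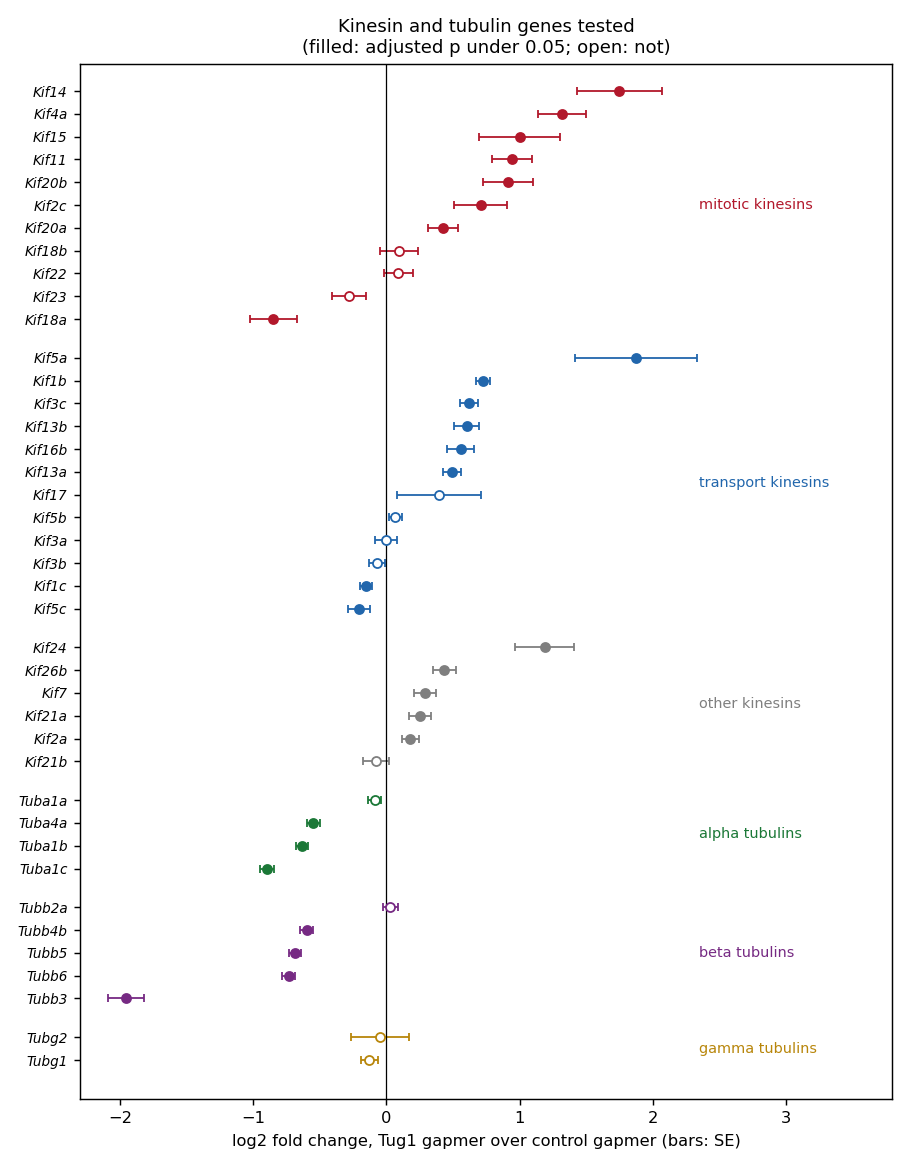
Log2 fold change with its standard error (horizontal axis) for each of the 40 tested genes, grouped by class. Filled points passed an adjusted p of 0.05; kinesin points lie mostly right of 0 up to 1.87 (Kif5a), and tubulin points lie left of 0 down to -1.96 (Tubb3), except Tubb2a at 0.03.

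Among mitotic kinesins, 7 of 11 tested genes rose and 1, Kif18a, fell. The share called was 72.7%, beside 61.7% of all tested genes. These counts include Kif14, which would not have passed the filter on its control libraries alone. The genes that rose were Kif14, Kif4a, Kif15, Kif11, Kif20b, Kif2c and Kif20a, with log2 fold changes from 1.75 down to 0.42. Kif18b, Kif22 and Kif23 were not called. The class median was 0.71, and the libraries of the groups did not overlap for 9 of the 11 genes, against 65.6% of all tested genes. In bulk RNA, a larger share of dividing cells and more of these transcripts per cell cannot be told apart.

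Promoter sequences are shown for mitotic kinesins that rose, that were not called and that fell, since genes of mitosis often carry a cell cycle homology region (CHR, searched as TTTGAA) or a CCAAT box (searched as CCAAT). Both were searched on both strands from 250 bases before to 50 after each start site in RefSeq's GRCr8 promoters, which held 35 of the 40 tested genes. Each line gives the 150 bases before the start site, 5′ to 3′ on the gene's strand, with matches to either motif in capitals. None of the matches shown overlaps another.
Kif11 promoter, chr1:244536717-244536866, + strand: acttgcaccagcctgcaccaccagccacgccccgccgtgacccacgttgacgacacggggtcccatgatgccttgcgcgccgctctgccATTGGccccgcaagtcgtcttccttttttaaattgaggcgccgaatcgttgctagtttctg
Kif15 promoter, chr8:131479254-131479403, + strand: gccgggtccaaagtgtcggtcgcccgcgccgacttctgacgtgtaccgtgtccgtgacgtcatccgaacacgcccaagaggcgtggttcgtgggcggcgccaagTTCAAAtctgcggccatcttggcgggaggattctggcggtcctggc
Kif23 promoter, chr8:71320585-71320734, - strand: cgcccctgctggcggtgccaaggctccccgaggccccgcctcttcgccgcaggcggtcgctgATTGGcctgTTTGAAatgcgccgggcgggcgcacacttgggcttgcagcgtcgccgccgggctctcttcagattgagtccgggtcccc
Kif18a promoter, chr3:116218857-116219006, + strand: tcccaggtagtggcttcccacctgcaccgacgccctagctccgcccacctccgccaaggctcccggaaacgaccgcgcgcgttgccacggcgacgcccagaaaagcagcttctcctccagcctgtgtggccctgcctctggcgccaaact

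Of the 10 tested mitotic kinesins in that table, 5 held TTTGAA, beside 18.3% of all 33469 promoters. They were Kif4a, Kif15 and Kif20b, which rose, and Kif22 and Kif23, which were not called. None of the 10 tested transport kinesins in the table held it. CCAAT was found in 6 of the 10 mitotic kinesins, beside 37.5% of all promoters, and both motifs in 4 of the 10, beside 7.41%. The 6 with CCAAT were Kif4a, Kif11, Kif20a and Kif20b, which rose, and Kif22 and Kif23, which were not called. Kif18a, the member that fell, held neither motif in this window. The same was true of Kif2c, which rose, and of Kif18b, which was not called. A match is a run of letters in this window and not a measured binding site.

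Kif11 slides antiparallel microtubules apart and so separates the spindle poles. It had 5.52, 4.18 and 6.48 CPM in control replicates 1 to 3 and 11.02, 9.54 and 10.5 CPM in knockdown replicates 1 to 3. Every knockdown library lay above every control library. The log2 fold change was 0.94 (SE 0.150, adjusted p 1.02e-05). Kif15, which can share that work, had 14, 17 and 13 counts in control and 33, 20 and 39 counts in knockdown libraries. The groups did not overlap, but knockdown replicate 2 lay close to the controls. Kif15 rose by a log2 fold change of 1.00 (SE 0.305, adjusted p 0.00677). Without knockdown replicate 3 it was 0.77 and missed the threshold (adjusted p 0.0532).

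Kif4a, a chromosome-bound motor that with Prc1 sets the length of the central spindle, had 2.30, 2.86 and 3.09 CPM in control and 7.03, 6.14 and 7.48 CPM in knockdown libraries. The knockdown libraries were all well above the controls, with a log2 fold change of 1.32 (SE 0.180, adjusted p 1.14e-06). Kif14, a midbody motor needed for cytokinesis, had 10, 15 and 5 counts in control and 36, 35 and 35 counts in knockdown libraries. Its knockdown values were close together and its control values spread. The log2 fold change was 1.75 (SE 0.318, adjusted p 5.02e-05).

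Kif20a, which brings the chromosomal passenger complex to the spindle midzone, had 9.28, 9.52 and 10.1 CPM in control and 12.1, 12.7 and 14.0 CPM in knockdown libraries, a log2 fold change of 0.42 (SE 0.113, adjusted p 0.0025). Kif20b, which acts late in cytokinesis, ran from 2.99 to 5.32 CPM in control and from 6.52 to 8.84 CPM in knockdown libraries (0.91, SE 0.189, adjusted p 0.000231). Kif2c, which takes microtubule ends apart at centromeres, ran from 2.32 to 3.16 CPM in control and from 3.92 to 4.98 CPM in knockdown libraries (0.71, SE 0.199, adjusted p 0.00375). The groups did not overlap for any of these genes.

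Kif18a, which shortens kinetochore microtubules and damps chromosome movement, went the other way. It had 5.91, 5.65 and 6.86 CPM in control and 3.26, 3.92 and 3.02 CPM in knockdown libraries, with no overlap. It fell by 0.85 on the log2 scale (SE 0.176, adjusted p 0.000224). Its relative Kif18b, which acts on astral microtubules, had 7.5 ± 0.354 CPM in control and 7.99 ± 1.28 CPM in knockdown libraries (SD, n = 3), and was not called.

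Kif23, a subunit of centralspindlin, had 9.20, 9.21 and 9.87 CPM in control and 7.25, 7.69 and 8.38 CPM in knockdown libraries. All knockdown libraries were lower, but the log2 fold change of -0.28 (SE 0.127) had an adjusted p of 0.0610. It passed with an offset for gene length (-0.29, adjusted p 0.0476). Kif22, which pushes chromosome arms away from the poles, had 14.7, 13.9 and 14.2 CPM in control and 14.9, 13.2 and 17.5 CPM in knockdown libraries. Its groups overlapped.

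**Figure D2:**
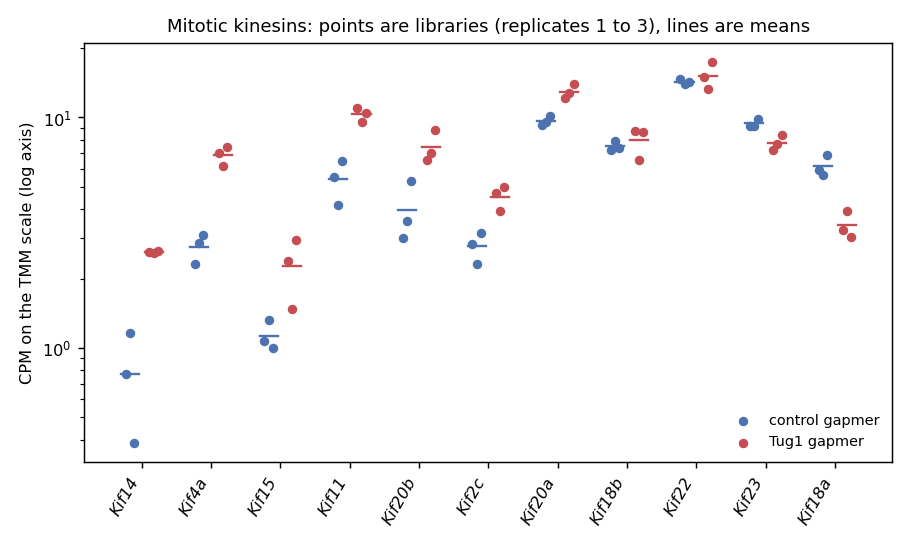
CPM in each library (log axis) for the 11 tested mitotic kinesins, control gapmer in blue and Tug1 gapmer in red, with a line at each mean. Kif14, Kif4a, Kif15, Kif11, Kif20b, Kif2c and Kif20a lie higher in all knockdown libraries, and Kif18a at the right lies lower.

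Among transport kinesins, 6 of 12 tested genes rose (Kif5a, Kif1b, Kif3c, Kif13b, Kif16b and Kif13a) and 2 fell (Kif1c and Kif5c). The share called, 66.7%, was near the 61.7% of all tested genes. The groups did not overlap for 8 of the 12, also near the share of all tested genes (65.6%). Kif5b, Kif3a, Kif3b and Kif17 were not called. The class median, with Kif5a included, was 0.44. When libraries were scaled by their totals the split was 7 higher, Kif5b included, and 0 lower. With the offset for gene length it was 5 higher and 3 lower. Kif5a passed the filter through the knockdown libraries alone. With a filter at a mean of at least 1 CPM, which left Kif5a out, the split was 5 higher and 2 lower of 11 tested.

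Kif1b, which carries mitochondria and vesicle precursors, had 140.4, 122 and 137 CPM in control and 213, 224 and 223 CPM in knockdown libraries. Every knockdown library was far above the controls, with a log2 fold change of 0.72 (SE 0.0533, adjusted p 6.63e-11). With the length offset Kif1b was at 0.48 and kept its call (adjusted p 1.77e-08). Its relative Kif1c, which moves vesicles towards the cell edge, had 234, 238 and 243 CPM in control and 214, 219.9 and 210.3 CPM in knockdown libraries. The groups did not overlap, and Kif1c fell by 0.15 (SE 0.0448, adjusted p 0.00535). With library totals the change of Kif1c was -0.10 and missed the threshold (adjusted p 0.0572).

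Kif13a, a motor of recycling endosomes, had 34.6, 36.6 and 41.3 CPM in control and 51.6, 52.7 and 54.2 CPM in knockdown libraries (0.49, SE 0.0695, adjusted p 1.82e-06). Kif13b, which carries membrane cargo, had 15.3, 13.1 and 16.4 CPM in control and 22.0, 22.5 and 23.6 CPM in knockdown libraries (0.60, SE 0.0953, adjusted p 9.16e-06). Kif16b, a motor of early endosomes, had 13.4, 11.8 and 14.5 CPM in control and 19.1, 20.3 and 19.0 CPM in knockdown libraries (0.56, SE 0.0993, adjusted p 4.06e-05). No library of either group reached into the other. With the length offset they were at 0.19, 0.33 and 0.20, and Kif16b missed the threshold (adjusted p 0.0761).

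Conventional kinesin is built from Kif5 heavy chains. Kif5b, the widely expressed form, had 310.1, 278 and 302 CPM in control and 315, 300.3 and 316 CPM in knockdown libraries. The groups overlapped, and its log2 fold change was 0.07 (SE 0.0477, adjusted p 0.240). Kif5c had 23.6, 23.8 and 22.4 CPM in control and 20.2, 19.5 and 20.8 CPM in knockdown libraries, and fell by 0.21 (SE 0.0825, adjusted p 0.0311). That call was lost in DESeq2's Wald test (adjusted p 0.0881) and when control replicate 1 (adjusted p 0.0775), control replicate 2 (0.0729), knockdown replicate 1 (0.0633) or knockdown replicate 2 (0.0939) was left out. It was also lost with library totals (-0.16, adjusted p 0.105). With the length offset Kif5c was at -0.48 and was called lower (adjusted p 2.9e-05).

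Kif5a, best known from neurons, had 5, 3 and 3 counts in control and 12, 20 and 11 counts in knockdown libraries. The knockdown libraries were higher, but the controls lay at or just above 3 counts, the most that sampling could hide behind a count of 0. The fitted log2 fold change was 1.87 (SE 0.457, adjusted p 0.00114). The 5 neuron markers summed to 0.542 to 1.46 CPM in control and 1.26 to 1.74 CPM in knockdown libraries.

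Of the kinesins that also serve cilia, Kif3c, a kinesin-2 type subunit, had 28.2, 28.0 and 28.4 CPM in control and 42.5, 45.4 and 42.3 CPM in knockdown libraries. It rose by a log2 fold change of 0.62 (SE 0.0690, adjusted p 5.38e-08). Kif3a and Kif3b, the pair that drives ciliary transport, were not called. Kif3a had 33.4 ± 3.33 and 33.3 ± 2.49 CPM and Kif3b 62.6 ± 2.43 and 59.5 ± 2.90 CPM in control and knockdown libraries (SD, n = 3). Kif3b passed as lower with the length offset (-0.13, adjusted p 0.0464). Kif17 had 11 to 17 counts in control and 15 to 23 in knockdown libraries and was not called.

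**Figure D3:**
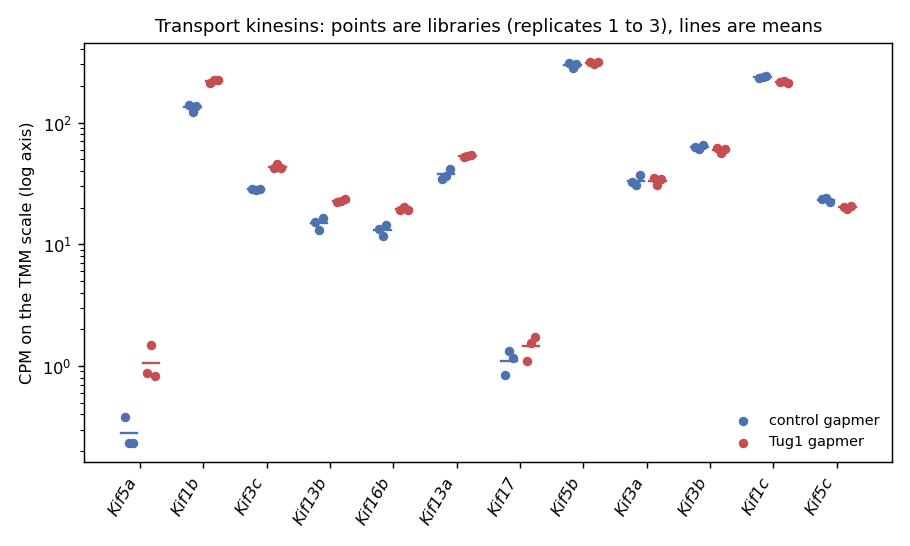
CPM in each library (log axis) for the 12 tested transport kinesins, control gapmer in blue and Tug1 gapmer in red, with a line at each mean. The 6 genes from Kif5a to Kif13a at the left lie higher in all knockdown libraries, and Kif1c and Kif5c at the right lie slightly lower.

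Summed over each class, mitotic kinesins had 61.9, 61.6 and 68.0 CPM in control and 80.7, 75.0 and 88.9 CPM in knockdown libraries. Transport kinesins had 896, 844 and 908 CPM in control and 996, 995 and 1006 CPM in knockdown libraries. Both sums were higher in every knockdown library, the mitotic sum at 128% and the transport sum at 113% of the control mean. The log2 ratio of the mitotic to the transport sum was -3.86, -3.77 and -3.74 in control and -3.63, -3.73 and -3.50 in knockdown libraries. These ratios did not overlap, though knockdown replicate 2 lay next to control replicate 3. The difference was 0.17, or 0.11 without knockdown replicate 3, beside SDs of 0.0592 and 0.114, and no test was made of these sums. With Kif2a counted as mitotic and Kif21a and Kif21b as transport kinesins, the ratio was -3.25, -3.11 and -3.13 in control and -3.00, -3.15 and -2.97 in knockdown libraries. The groups then overlapped, and the difference was 0.12.

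Of 6 other kinesins tested, 5 rose and Kif21b was not called. The share called was 83.3% of these few genes, beside 61.7% of all tested genes. Kif24, a regulator of centriole capping, had 2.69, 2.17 and 1.39 CPM in control and 4.64, 4.51 and 5.14 CPM in knockdown libraries, a log2 fold change of 1.19 (SE 0.221, adjusted p 6.76e-05). Kif7, a Hedgehog pathway regulator at the ciliary tip, had 21.0, 21.5 and 19.8 CPM in control and 24.6, 27.0 and 24.5 CPM in knockdown libraries (0.29, SE 0.0827, adjusted p 0.00440). Both kept their calls with the length offset, at 1.06 and 0.28.

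The remaining calls in this class depended on the offset. Kif26b, a signalling kinesin without known transport work, had 26.8, 27.1 and 28.5 CPM in control and 34.3, 34.2 and 42.8 CPM in knockdown libraries (0.43, adjusted p 0.000129). Kif21a, a brake on microtubule growth, had 23.7, 21.1 and 20.9 CPM in control and 24.9, 26.6 and 26.7 CPM in knockdown libraries (0.25, adjusted p 0.0115). Kif2a, which takes microtubule ends apart, had 44.9, 51.0 and 48.6 CPM in control and 56.0, 52.5 and 55.1 CPM in knockdown libraries (0.18, adjusted p 0.0186). The groups did not overlap for these genes, but with the length offset their log2 fold changes were 0.03, 0.03 and 0.05 and none was called, leaving 2 of 6 called. Kif2a also missed the threshold without control replicate 1 (adjusted p 0.145) and without knockdown replicate 1 (0.0627).

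Kif21b, a relative of Kif21a, had 99.3, 106 and 89.5 CPM in control and 72.6, 113 and 94.2 CPM in knockdown libraries. Knockdown replicate 1 was the lowest and replicate 2 the highest of all 6 libraries. Its log2 fold change of -0.08 (SE 0.0975, adjusted p 0.522) turned to 0.08 without knockdown replicate 1, and it was called lower without knockdown replicate 2 (-0.24, adjusted p 0.0140).

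Among tubulins, 3 of 4 tested alpha genes and 4 of 5 tested beta genes fell, and neither gamma gene was called. The genes that fell were Tuba1b, Tuba1c, Tuba4a, Tubb3, Tubb4b, Tubb5 and Tubb6. Summed alpha tubulin was 1686, 1747 and 1710 CPM in control and 1239, 1292 and 1302 CPM in knockdown libraries. Summed beta tubulin was 1564, 1625 and 1572 CPM in control and 1047, 963 and 1025 CPM in knockdown libraries. Both sums were lower in every knockdown library, alpha at 74.5% and beta at 63.7% of the control mean. Tubulin genes are near-identical in their coding parts and have processed pseudogenes, and how reads that match several genes were counted is not given in the sources used here, so values of single isotypes are uncertain.

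Promoters are shown for Tuba1b, Tubb3, Tubb5 and Tubb6, which all fell and all hold a CCAAT match. They are not a sample of the tubulins, and the counts over all tested tubulins follow the sequences. The lines give 150 bases before the start site in RefSeq's GRCr8 promoters, 5′ to 3′ on the gene's strand, with CCAAT box matches in capitals.
Tuba1b promoter, chr7:131972588-131972737, - strand: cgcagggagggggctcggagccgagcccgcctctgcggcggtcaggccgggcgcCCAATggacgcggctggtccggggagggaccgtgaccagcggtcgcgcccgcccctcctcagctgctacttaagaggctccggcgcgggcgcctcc
Tubb3 promoter, chr19:68365537-68365686, + strand: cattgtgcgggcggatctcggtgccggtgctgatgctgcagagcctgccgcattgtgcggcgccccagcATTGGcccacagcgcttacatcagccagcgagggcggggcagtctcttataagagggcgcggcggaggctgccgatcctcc
Tubb5 promoter, chr20:2917427-2917576, + strand: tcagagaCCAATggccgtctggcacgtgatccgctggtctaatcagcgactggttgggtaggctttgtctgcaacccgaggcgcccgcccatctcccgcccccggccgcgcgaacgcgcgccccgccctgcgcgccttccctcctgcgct
Tubb6 promoter, chr18:63213137-63213286, + strand: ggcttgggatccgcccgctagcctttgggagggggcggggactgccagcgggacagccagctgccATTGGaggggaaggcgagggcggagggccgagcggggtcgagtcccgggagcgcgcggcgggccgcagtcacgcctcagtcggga

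CCAAT on either strand was found in 8 of 11 tested tubulins, beside 37.5% of all promoters. The 8 were 6 of the 7 that fell (not Tuba4a), and Tuba1a and Tubg1, which were not called. Tubb2a and Tubg2 held none in this window. TTTGAA was found in 2 of 11, Tuba1c and Tubb4b, beside 18.3% of all promoters. Here too tested genes stand beside single promoters that include untested genes, and no test was made.

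Tuba1b, a ubiquitous alpha tubulin, had 585, 595 and 626 CPM in control and 379, 381 and 402 CPM in knockdown libraries. It fell by 0.64 on the log2 scale (SE 0.0441, adjusted p 2.41e-11). Tuba1c, its close relative, had 279.7, 298 and 269 CPM in control and 159.8, 157 and 138 CPM in knockdown libraries. It fell by 0.90 (SE 0.0550, adjusted p 3.22e-12). Tuba4a had 157, 163 and 160.1 CPM in control and 112, 109 and 107 CPM in knockdown libraries, and fell by 0.55 (SE 0.0490, adjusted p 1.56e-09). No knockdown library of these genes reached a control library.

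Tuba1a, the alpha tubulin most abundant in developing neurons, did not follow. It had 664, 690.1 and 653.9 CPM in control and 588, 645 and 653.8 CPM in knockdown libraries, so that the groups all but touched. Its log2 fold change was -0.09 (SE 0.0457, adjusted p 0.0944). Without knockdown replicate 3 it was -0.12 and was called (adjusted p 0.0437), and with the length offset it was 0.06 without a call.

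Tubb5, a ubiquitous beta tubulin, had 863, 891 and 893 CPM in control and 574, 518 and 553 CPM in knockdown libraries. It fell by 0.69 (SE 0.0443, adjusted p 7.65e-12). Tubb6, a beta tubulin of many non-neuronal cells and of regenerating muscle, had 422.5, 439.6 and 398 CPM in control and 260.0, 243 and 255 CPM in knockdown libraries, and fell by 0.73 (SE 0.0474, adjusted p 7.54e-12). Tubb4b had 182.5, 195 and 189 CPM in control and 127, 117.5 and 129 CPM in knockdown libraries, and fell by 0.60 (SE 0.0511, adjusted p 7.29e-10). All knockdown libraries of these genes lay below all controls.

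Tubb3, known as a marker of neurons, had the largest fall of the 40 tested members. It had 195, 195 and 222 counts in control and 55, 49 and 60 counts in knockdown libraries, or 15.7 ± 1.21 and 4.05 ± 0.456 CPM (SD, n = 3). The groups were far apart, with the knockdown level at 25.7% of that in controls. Tubb3 fell by 1.96 on the log2 scale (SE 0.134, adjusted p 2.06e-11), beside a log2 fold change of -2.19 for the targeted RNA Tug1. Of the 5 neuron markers, Nefl and Gad1 had no count, Snap25 and Rbfox3 had at most 4 counts in any library, and Syt1 had 13, 7 and 14 counts in control and 19, 15 and 16 counts in knockdown libraries and was not called.

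Tubb2a, the remaining beta tubulin tested, had 81.0, 84.4 and 74.9 CPM in control and 82.1, 80.3 and 82.6 CPM in knockdown libraries. The groups overlapped, with a log2 fold change of 0.03 (SE 0.0567, adjusted p 0.686). With the length offset it was called higher (0.19, adjusted p 0.00376). Tubb4a was under the filter and not tested, with 0 counts in each control library and 1, 8 and 7 counts in knockdown libraries. Tubb2b had 3 counts in knockdown replicate 1 and none elsewhere. Tuba8 had 7, 9 and 12 counts in control and 3, 5 and 13 counts in knockdown libraries, Tubb1 had at most 1 count in any library, and Tuba3a and Tuba3b had no count.

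Gamma tubulin, the nucleating form, comes from a pair of genes. Tubg1 had 62.8, 68.4 and 58.1 CPM in control and 57.2, 56.7 and 59.1 CPM in knockdown libraries, a log2 fold change of -0.13 (SE 0.0631, adjusted p 0.0784). Its groups overlapped through control replicate 3, and without that library it was called lower (-0.19, adjusted p 0.0165). Tubg2 had 56, 32 and 48 counts in control and 43, 53 and 41 counts in knockdown libraries, overlapped and was not called.

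Because some isotypes fell and others did not, the make-up of the tubulin counts differed between groups. Tuba1a made up 39.0% ± 0.694 of alpha tubulin counts in control and 49.2% ± 1.5 in knockdown libraries (SD, n = 3). Tuba1b went from 35.1% ± 1.33 to 30.3% ± 0.724 and Tuba1c from 16.5% ± 0.673 to 11.9% ± 1.15. Tuba4a went from 9.33% ± 0.0323 to 8.56% ± 0.421. Groups did not overlap for the shares of these 4 tested alpha genes.

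Among beta tubulins, Tubb2a went from 5.04% ± 0.244 to 8.08% ± 0.255 and Tubb3 from 0.991% ± 0.0856 to 0.400% ± 0.0368 (SD, n = 3). The shares of the other isotypes differed less in proportion. Tubb5 went from 55.6% ± 1.05 to 54.2% ± 0.544, Tubb6 from 26.5% ± 0.996 to 25.0% ± 0.214 and Tubb4b from 11.9% ± 0.204 to 12.3% ± 0.266. The difference for Tubb5 was -1.42 percentage points, and -0.822 without control replicate 3. That for Tubb4b was 0.415 points, and 0.263 without knockdown replicate 3. No test was made of shares, which sum to a fixed total, so a rise of 1 share lowers others. The groups did not overlap for the shares of these 5 tested beta genes either, though for Tubb5 they all but touched.

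**Figure D4:**
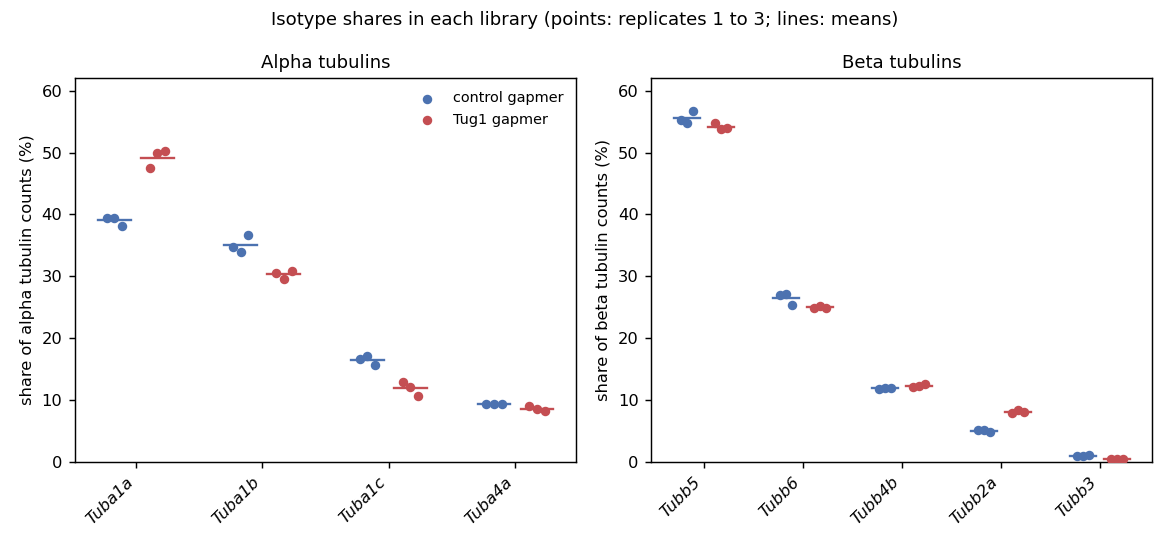
Share of alpha tubulin counts (left) and beta tubulin counts (right) held by each tested isotype in each library, control gapmer in blue and Tug1 gapmer in red, with a line at each mean. The Tuba1a points move from about 39.0% to 49.2% and the Tubb2a points from 5.04% to 8.08%, while Tubb5 stays near 55.6% and 54.2%.

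Gene length moved with the fold changes of all genes. Across deciles of genomic span, from a RefSeq gene table of GRCr8, the median log2 fold change ran from -0.21 in decile 1 (shortest) to 0.33 in decile 10 (longest). Of 11 tested tubulins, 10 lay in deciles 1 to 4. Tuba1c was placed in decile 10, while its relatives Tuba1b and Tuba1a lay in deciles 1 and 2. That table may not match the annotation used for counting, so the offset value of Tuba1c (-1.31, beside -0.90 without it) is uncertain. Of the transport kinesins, Kif13a, Kif13b, Kif16b, Kif1b and Kif5c lay in decile 10. An offset that takes this trend out of each library left the medians of mitotic kinesins at 0.71 and of transport kinesins at 0.20, of other kinesins at 0.04, and those of alpha and beta tubulins at -0.48 and -0.53. With it, 7 mitotic kinesins were higher and 2 lower, and all 7 tubulins that fell were still called lower, with Tubb2a called higher. All kinesins then split into 14 higher and 5 lower. By the same offset 62.1% of 13084 genes were called, 30.3% higher and 31.8% lower.

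**Figure D5:**
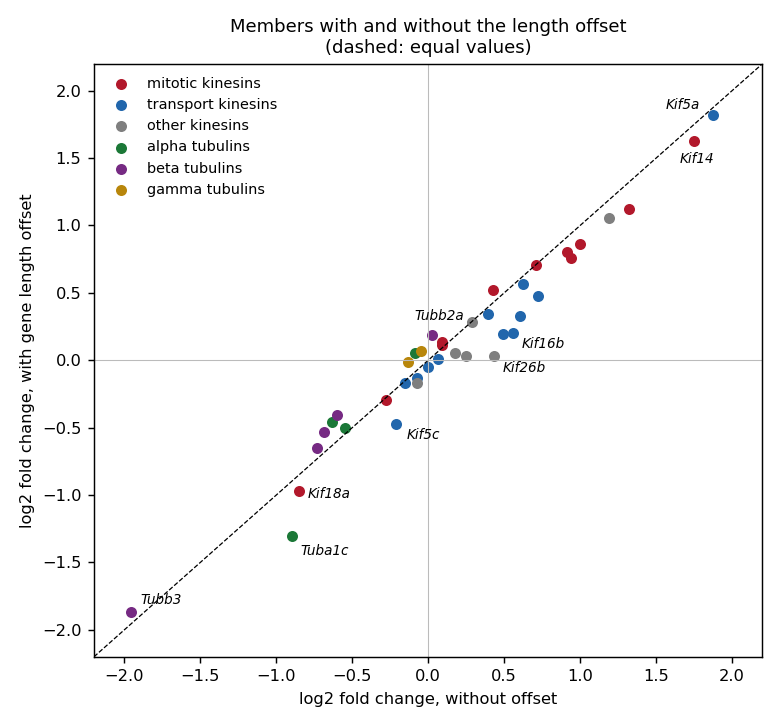
Log2 fold change of the 40 tested genes without (horizontal) and with (vertical) the offset for gene length, coloured by class; the dashed line marks equal values. Most mitotic kinesins and Tubb3 (-1.96 and -1.87) stay near the line, while Kif16b (0.56 and 0.20) and Kif26b (0.43 and 0.03) drop towards 0.

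Other genes of the microtubule system were counted from lists, beside 61.7% of all tested genes called, 30.8% higher and 30.9% lower. The share called was 72.7% of further kinesin genes, 75% of spindle and mitosis genes and 81.2% of microtubule-associated protein genes. It was 76.9% for the gamma tubulin complex. For dynein and dynactin genes (64%) and tubulin folding and modification genes (69.2%) it was nearer to that of all genes. Of 11 further kinesin genes, motors and partners, 6 rose and 2 fell. The mitotic motors Cenpe (5.21 ± 0.868 to 10.0 ± 2.29 CPM, SD, n = 3) and Kifc1 (log2 fold change 0.71) rose, and both were picked after their values were seen. Kifap3, which ties kinesin heterodimers to cargo, rose from 45.4 ± 3.05 to 84.8 ± 3.88 CPM (0.90), and Kifbp, which restrains kinesin motors, rose by 0.53. Kifc3, a motor at cell junctions, fell from 65.3 ± 3.49 to 33.9 ± 2.39 CPM (-0.95), and the kinesin light chain Klc2 was at -0.36.

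Of 24 spindle and mitosis genes, 18 rose and 0 fell, with a median of 0.58. Incenp, the scaffold of the chromosomal passenger complex, rose from 14.9 ± 1.3 to 29.3 ± 0.831 CPM (0.98), and the cell cycle transcription factor gene Mybl2 rose from 3.57 ± 0.296 to 9.48 ± 0.814 CPM (1.41; SD, n = 3). Foxm1, a further regulator of mitotic genes, picked with its values known, had a log2 fold change of -0.21 and not called (adjusted p 0.248). These genes moved beside the mitotic kinesins, and their part in that result was not tested.

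Of 32 tested microtubule-associated protein genes, 18 rose and 8 fell, with Map1a (1.01), Mapre3 (1.13), Clip1 (-0.82) and Stmn1 (-0.65) named by their small p-values. With the length offset that split was 14 higher and 12 lower. Stmn1 encodes stathmin, which binds free tubulin dimers. Of 25 tested dynein and dynactin genes, 10 rose and 6 fell, among them Actr1a (0.69), Dctn2 (0.55), Dynll2 (-0.70) and Dynll1 (-0.48). Of 13 genes of the gamma tubulin complex and its anchors, 8 rose and 2 fell, among them Tubgcp2 (0.93), Akap9 (0.67), Tubgcp4 (-0.54) and Mzt1 (-0.58). Of 26 tubulin folding and modification genes, 12 rose and 6 fell. Ttl, which adds tyrosine back to alpha tubulin tails, rose from 134 ± 6.12 to 243 ± 1.86 CPM (0.86; SD, n = 3) and Sirt2, a tubulin deacetylase, by 0.61. The folding genes Pfdn4 and Tbcb were at -0.50 and -0.41. Ttc5, which directs decay of tubulin transcripts when free tubulin is abundant and was picked with its values known, had a log2 fold change of -0.04 and not called (adjusted p 0.738).

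The 16 members under the filter were Kif1a, Kif2b, Kif4b, Kif6, Kif9, Kif12, Kif19, Kif26a, Kif27, Kif28p, Tuba3a, Tuba3b, Tuba8, Tubb1, Tubb2b and Tubb4a, with at most 13 counts in any library. When they were tested without the filter, Tubb4a was called higher (edgeR adjusted p 0.000894). For the others with any count, no difference was detectable at this depth, and Tuba3a and Tuba3b had none.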

How the data were processed

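The authors deposited 1 table of raw counts per gene symbol, whole numbers for each library without pooling. Per the submitters' processing notes, FastQC 0.11.7, fastp 0.14.1 and STAR 2.5 were used; the counting tool, genome build, annotation and use of strand are not given in the sources used here. All 6 columns were used. Counts were tested in R 4.3.3 with edgeR 4.0.16 (filter at a minimum count of 10 and minimum total of 15, 14216 genes; TMM; quasi-likelihood test, two-sided, Benjamini-Hochberg adjustment over all tested genes), on all 6 libraries without a block. Members, classes and lists were chosen with earlier results of these data known. Values in every library are given for tested tubulins and, in each kinesin class, for the 4 largest called changes at a mean of at least 1 CPM and the 2 highest levels, with others added; in each other list the 2 smallest p-values per direction are named. Alternatives were DESeq2 size factors, library totals, DESeq2 1.42.0's Wald test, limma-voom (limma 3.58.1), other filters, an adjusted p under 0.01, an offset for genomic span (lowess span 0.3, 92.0% of tested genes), the replicate block and leaving out each library. The test was checked on simulated data in which few genes changed. That check does not cover a table in which 61.7% of tested genes were called. Counting error alone allows 3 counts, or 0.218 to 0.232 CPM, where none was seen; this covers counting error only, since copies made by PCR were not told apart. Levels per coding length were not run, as no protein table was used here.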

Additional observations from a re-analysis of the deposited data

How the results depend on the processing

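Of 40 tested members, 23 kept direction and call under every one of the 16 alternatives in which it was tested, and 17 did not. Over 639 combinations of member and alternative, 592 were the same, 21 weaker, 11 stronger and 15 reversed. Of 26 genes named from the other lists, 25 kept direction and call under all alternatives. The exception, Ttc5, which was not called, was at 0.0146 with library totals, and between -0.0799 and 0.0018 with single libraries omitted. The count of other kinesins called, 5, was 3 at an adjusted p under 0.01, 2 with the length offset and 3 with the offset and the replicate block; the counts of the mitotic, transport and tubulin groups and of all genes stayed within 1.5 times. Reversals touched genes that were not called. Tuba1a was at 0.0561 with the length offset and 0.0539 with the block added, Tubg2 at 0.0041 with library totals, 0.0697 with the offset and 0.0772 with the block added, and Kif3a at 0.0514 with library totals and 0.0002 with limma-voom. When a library was left out, Kif21b ran from -0.24 to 0.0778, Kif22 from -0.0196 to 0.18, Kif3a from -0.0673 to 0.0776, Tubb2a from -0.0196 to 0.0625 and Tubg2 from -0.25 to 0.12. Apart from the offset's own use of gene length, the cause was not tested. Same-numbered libraries did not deviate together, with correlations of -0.00531, 0.0298 and 0.027 for replicates 1, 2 and 3, so the numbers were not taken as pairs. With the replicate block 8848 genes were called instead of 8773, mitotic, transport and other kinesins kept 8, 8 and 5 calls, and Tuba1a joined the tubulins called lower (-0.09, edgeR adjusted p 0.0494). Without a filter Tubb4a was tested and the tubulins called were 8, 1 of them higher. Low counts limit Kif5a, with 3 to 5 in each control library, and the untested members.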
